A study of Mus musculus with 8 samples.

Results

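S100a4, S100a8 and S100a9 are 3 genes of the S100 family of small calcium-binding proteins, followed here in lung RNA of mice that carry extra Fra-2. They were represented by 4 of the 20794 probes of a spotted 2-colour array, 1 for S100a4, 1 for S100a8 and 2 for S100a9, and are 3 of 8741 genes named on it. The genes were chosen by the same measurement that is described below, the log2 ratio of transgenic lung over wild-type lung in these samples, where S100a4 had stood out as high and S100a8 and S100a9 as low. Their ratios are therefore given as values only, and no test of transgenic against wild type is made for them.

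The samples came from 4 male mice transgenic for Fra-2, which is encoded by Fosl2 and is a member of the AP-1 group of transcription factors. All were aged 14 weeks and bred on C57BL6 x CBA. Lung RNA of each transgenic mouse was hybridised on 2 arrays, once labelled with Cy5 and once with Cy3, always against 1 shared pool. The pool joined the lung RNA of 4 wild-type males of equal age and the same C57BL6 x CBA background. Mice of 6 and 10 weeks are part of the study's design and are not analysed here. No source used here gives the promoter that drives the transgene. The pool counts as 1 control sample, so the spread among wild-type mice is unknown.

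S100 proteins mostly work as dimers that bind calcium and then dock onto a partner protein. S100A8 and S100A9 pair with each other as calprotectin, which makes up a large share of the soluble protein of neutrophils, is also made by monocytes, and binds zinc and manganese. Once released, the pair acts on the receptors RAGE and TLR4. S100A4, also known as metastasin or fibroblast-specific protein 1, binds non-muscle myosin II and is found in macrophages, T cells, dendritic cells and fibroblasts. In lung its RNA can thus come from immune cells as well as from mesenchymal cells.

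Each value is a log2 ratio for 1 probe on 1 array, so 0 means equal signal, 1 a doubling and -1 a fall to the inverse of that. A ratio holds no level, so it cannot be said which of the genes was the most abundant, nor whether the lung's defining markers were present. The direction, transgenic over pool, rests on the order of the channels in the labels and is likely only. If it ran the other way, every sign would turn. Gene names rest on a shift of 11 between the numbers of the platform annotation and the rows of the values. At that shift, the ratios of probes of the same gene had a Spearman correlation of 0.224 over 4802 pairs, against at most 0.0536 at the other shifts among 121 tried. The same shift was best in each stretch of the annotation that holds a probe of the 3 genes. The correlation there was 0.212 around S100a4, 0.281 around S100a8 and 0.255 around the first probe of S100a9. It was lowest, 0.122 against at most 0.101 at other shifts, around the second probe of S100a9. In whole lung, fewer cells of a type and less RNA per cell cannot be told apart.

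The 3 genes lie in 1 cluster of S100 genes on mouse chromosome 3, with S100a8 and S100a9 next to each other. Their starts are shown because the transgene encodes a promoter-binding factor and because S100a8 and the first probe of S100a9 had nearly the same ratios. The stretches run from 150 bases before the RefSeq transcript start to 10 bases into the transcript, on the strand of the gene, in build GRCm38.p6. Capitals mark the TATA-box letters TATAAA, a motif searched for after the sequences had been seen.

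S100a4, chr3:90603620-90603779, plus strand: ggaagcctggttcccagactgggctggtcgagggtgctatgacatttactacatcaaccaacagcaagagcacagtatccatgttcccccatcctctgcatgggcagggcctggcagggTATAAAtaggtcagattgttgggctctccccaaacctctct

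S100a8, chr3:90668921-90669080, plus strand: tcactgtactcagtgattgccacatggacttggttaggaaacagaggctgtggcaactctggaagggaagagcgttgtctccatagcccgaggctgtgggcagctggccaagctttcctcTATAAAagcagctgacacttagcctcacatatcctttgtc

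S100a9, chr3:90695712-90695871, minus strand: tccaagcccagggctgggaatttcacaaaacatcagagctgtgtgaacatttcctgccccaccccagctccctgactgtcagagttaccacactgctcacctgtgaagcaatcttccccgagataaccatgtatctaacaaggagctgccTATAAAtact

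TATAAA began 31 bases before the start of S100a4 and 30 bases before that of S100a8, while in S100a9 it began at the annotated start itself. On either strand, it was found in 13.6% of the 32851 RefSeq promoter windows of 300 bases. The AP-1 motif TGANTCA, which reads the same on both strands, was in none of the windows of these 3 genes and in 7.81% of all windows. Of 15 S100 genes with a window, 3 held it, S100a7l2, S100a11 and S100a16. No match says only that these letters are not in this window.

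S100a4, chosen for its high ratio, was the highest of the S100 genes measured. It was 2.77-fold higher in transgenic lung than in the pool (log2 1.47 ± 0.32, SD, n = 4 mice). With the transgenic RNA in Cy5 the log2 ratio was 1.89 in mouse 1, 1.21 in mouse 2, 1.86 in mouse 3 and 1.60 in mouse 4. With the dyes exchanged it was 1.65, 0.96, 1.53 and 1.07 in the same order. All 8 arrays were above 0. By mouse means, 2013 of the 8692 genes tested were above 0 in all 4 mice. Mice 1 and 3 were the highest at means of 1.77 and 1.69, mouse 4 followed at 1.33 and mouse 2 was the lowest at 1.09.

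S100a8 had a mean log2 ratio of -1.09 ± 0.66 (SD, n = 4 mice), a 2.13-fold lower signal than in the pool. This mean joined unlike animals. The Cy5 arrays gave -0.065 in mouse 1, -1.15 in mouse 2, -1.34 in mouse 3 and -1.38 in mouse 4, and the Cy3 arrays gave -0.15, -1.48, -1.43 and -1.73. Mouse 1 was thus level with the pool, while the other 3 mice lay close together at a mean of -1.42 ± 0.12 (SD, n = 3 mice), or 2.67-fold lower. No array of mouse 1 overlapped with any array of the other mice. The share of all probes with such a separation of 1 mouse was not counted.

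The first probe of S100a9 followed S100a8 array by array, with a mean log2 ratio of -1.04 ± 0.64 (SD, n = 4 mice). Its Cy5 arrays gave -0.005, -1.18, -1.18 and -1.09 in mice 1 to 4, and its Cy3 arrays gave -0.18, -1.33, -1.45 and -1.92. Again mouse 1 was level with the pool and the other 3 mice were low, at -1.36 ± 0.13 (SD, n = 3 mice), or 2.56-fold lower. The gap between S100a8 and this probe on the same array was between 0.021 and 0.29. After the mean of each dye orientation was taken off, the Pearson correlation over the 8 arrays was 0.979. It is a description of 8 arrays from 4 mice that share 1 pool. Such a value was not particular to this pair. Wars had 0.982 with this probe and Ring1 had 0.973 with S100a8.

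The second probe of S100a9 did not show this pattern. Its mean log2 ratio was 0.19 ± 0.079 (SD, n = 4 mice), with 0.035, 0.13, -0.18 and -0.10 on the Cy5 arrays of mice 1 to 4 and 0.16, 0.37, 0.71 and 0.41 on the Cy3 arrays. The Cy3 array was the higher in 4 of 4 mice, and the sign of the mean turned with the dye, from -0.03 with the transgenic RNA in Cy5 to 0.41 in Cy3. Its correlation with the first probe over the 8 arrays was -0.34. Both probes carry the same reference accession in the annotation, and the second lies where the match of names was weakest. Which of them reports S100a9 was not tested, so S100a9 is given by probe, and the mean over both probes (-0.42 ± 0.30, SD, n = 4 mice) stands for no measured pattern.

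**Figure D1:**
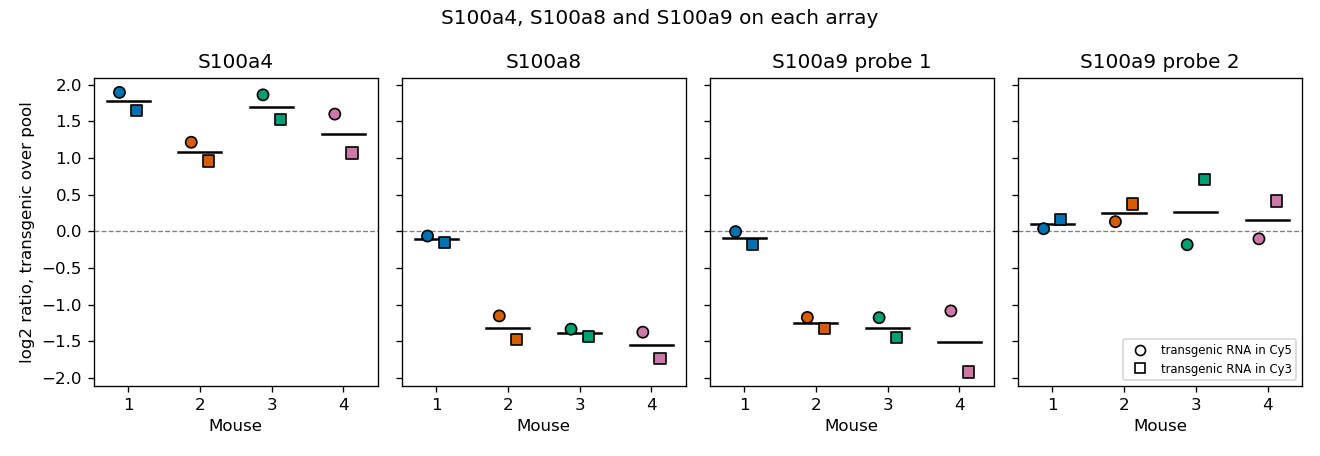
Log2 ratio of transgenic over pool (vertical axis, no unit) on each array for the 4 probes, by mouse (horizontal axis); circles are arrays with the transgenic RNA in Cy5, squares those with it in Cy3, and bars are the means of the 2 arrays of a mouse. S100a4 lies above 0 on all 8 arrays, S100a8 and the first probe of S100a9 are near 0 in mouse 1 and below -1 in the other 3 mice, and the second probe of S100a9 stays between -0.18 and 0.71.

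The spread among the 4 transgenic mice was set against technical error. A limma F test compared it with the spread between the dye-swapped arrays of each mouse, which share 1 RNA sample. It therefore speaks of these 4 RNA samples and not of transgenic mice at large, and it uses the arrays on which the genes were chosen, so it is no independent support. S100a8 differed between the 4 samples by more than the dye-swapped arrays did (adjusted p = 0.0353), with a range of 1.45 between the highest and lowest mouse mean, whereas 0.986% of the 20392 probes tested did so. The first probe of S100a9 had a like range, 1.41, and missed the threshold (adjusted p = 0.0761). Its arrays of mouse 4 lay 0.83 apart, whereas the largest gap between dye-swapped arrays of S100a8 was 0.36. S100a4 (adjusted p = 0.189) and the second probe of S100a9 (adjusted p = 0.903) did not pass either. With the arrays scaled to a common spread the first probe of S100a9 passed (adjusted p = 0.0155), and with placeholder values kept S100a8 did not (adjusted p = 0.0528).

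A dye effect was tested as well, from the gap between the arrays of each animal. None of the 4 probes passed in limma (adjusted p = 0.172 for S100a4, 0.266 for S100a8, 0.205 and 0.176 for the probes of S100a9). Over all probes 1 passed, 0.0049% of 20392, although 4912 had an unadjusted p under the threshold. S100a4 was higher on the Cy5 array in 4 of 4 mice, with means of 1.64 in Cy5 and 1.3 in Cy3. S100a8 was lower on the Cy3 array in 4 of 4 mice, at -0.98 in Cy5 and -1.20 in Cy3. Adjusted p-values across genes below come from limma on the mean of each mouse against 0.

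The other S100 genes are given beside the 3 genes. The 3 were chosen for high or low ratios, so their distance from the family is no result. Of 11 measured, 2 rose, 0 fell and 9 did not pass, beside 13.5% higher and 18.4% lower of the 8692 genes tested, 31.9% in all. By single probes 25.7% of 20621 passed. Their median was 0.17, against -0.01 over all genes. S100a14, an S100 protein of epithelia, rose by 0.90 ± 0.21 (SD, n = 4 mice, adjusted p = 0.0015), with 1.08, 0.80, 0.64 and 1.06 in mice 1 to 4. S100a6, the gene of calcyclin, rose by 0.74 ± 0.14 (adjusted p = 0.00164), with 0.94, 0.64, 0.72 and 0.65. Both were above 0 in 4 of 4 mice. S100a6 was higher in Cy5 (1.08) than in Cy3 (0.39), and missed the threshold on the Cy3 arrays alone (adjusted p = 0.0543), which left only S100a14 past it, whereas S100a11 and S100a16 also passed on the Cy5 arrays alone (adjusted p = 0.0317 and 0.0373).

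The remaining family members lay near the pool. S100a5 had 0.27 ± 0.34 and the glial and cartilage gene S100b 0.28 ± 0.27, and S100b passed without mouse 3 (adjusted p = 0.0497) and with the mouse as a random block (adjusted p = 0.0433), which made 3 of the 11 higher. S100a10, which forms a complex with annexin A2, had 0.22 ± 0.32 over its 2 probes, which gave 0.05 and 0.40, and the second alone passed (adjusted p = 0.0236 among genes with 1 probe each). S100a16 had 0.17 ± 0.15, S100a11 0.13 ± 0.14 and S100a1, an S100 gene of heart muscle, 0.12 ± 0.25. S100a3 and S100a13 were at 0.02 ± 0.22 and 0.01 ± 0.26. S100g, the calcium-binding protein calbindin-D9k, was the lowest at -0.23 ± 0.28 (SD, n = 4 mice for each). None of the 12 probes of these 11 genes differed between mice, and 0.986% of all 20392 probes tested did.

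Along chromosome 3 high and low members lay side by side. S100a3, S100a4, S100a5 and S100a6 follow each other among protein-coding genes, with S100a2, which has no named probe here, between the first pair, and had 0.02, 1.47, 0.27 and 0.74. S100a8 and S100a9 come next, after S100a7a, and are the only adjacent members that were both low, by S100a8 and the first probe of S100a9. No further gene within 5 places on either side was both named and measured, except S100a16 on the side of S100a4.

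**Figure D2:**
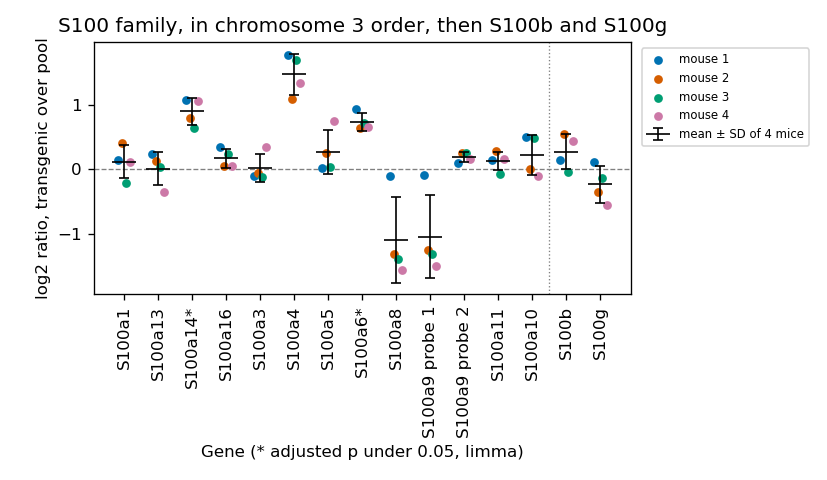
Mean log2 ratio (vertical axis, no unit; horizontal bar with SD of 4 mice) and the 4 mouse means (points) for the S100 genes, ordered as on chromosome 3 and then S100b and S100g; asterisks mark adjusted p under 0.05 and are not given for S100a4, S100a8 and S100a9. S100a4, S100a14 and S100a6 stand above the rest, and S100a8 and the first probe of S100a9 stand below it in 3 of 4 mice.

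Receptors and binding partners of S100 proteins moved in both directions. This list and those below were chosen with earlier results of these data known, so their shares are descriptions. Of 16 measured, 4 rose (25% beside 13.5% of all genes) and 7 fell (43.8% beside 18.4%), with a median of -0.02. Ager, the gene of RAGE, which in lung is mainly a product of type 1 alveolar epithelium, fell by 0.78 ± 0.23 (adjusted p = 0.00256), with -0.56, -0.61, -0.92 and -1.02 in mice 1 to 4. Of the markers of that epithelium, Emp2 (-0.98 ± 0.26) and Aqp5 (-0.55 ± 0.24) fell too, while Pdpn did not pass (0.02 ± 0.14, adjusted p = 0.905). The part of that epithelium in the fall of Ager was not tested. Itgb2, the beta chain of the leukocyte integrins, rose by 1.18 ± 0.55 (adjusted p = 0.0051), with 1.89, 0.59, 1.28 and 0.96. Bsg, a receptor for S100A9, Anxa2, the partner of S100A10, and Myd88, the adaptor of TLR4, rose by 0.26 ± 0.11, 0.27 ± 0.14 and 0.30 ± 0.16 (adjusted p = 0.0377, 0.0401 and 0.0331), and each lost its call without mouse 1, 2 or 3 (adjusted p between 0.0848 and 0.159).

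Partners of S100A4 were among those that fell. Myh10, a heavy chain of non-muscle myosin II, fell by 0.76 ± 0.26 (adjusted p = 0.0035), Myh14, another such chain, by 0.59 ± 0.19 (adjusted p = 0.00465) and Metap2, an aminopeptidase, by 0.60 ± 0.24 (adjusted p = 0.00605). Ppfibp1, the gene of liprin beta 1, stood at 0.0045 ± 0.12. The annexin genes Anxa5 and Anxa1 fell by 0.74 ± 0.24 and 0.37 ± 0.11 (adjusted p = 0.00317 and 0.0116), while Anxa6 (-0.01 ± 0.27) and Anxa11 (0.01 ± 0.11) did not pass. Cacybp, which binds S100A6, fell by 0.41 ± 0.12 (adjusted p = 0.00934), a call that was lost on the Cy3 arrays alone (adjusted p = 0.44). Mdm2 (0.08 ± 0.18) and the syndecan gene Sdc1 (-0.03 ± 0.09) did not pass. Tlr4 itself is not among the named probes.

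**Figure D3:**
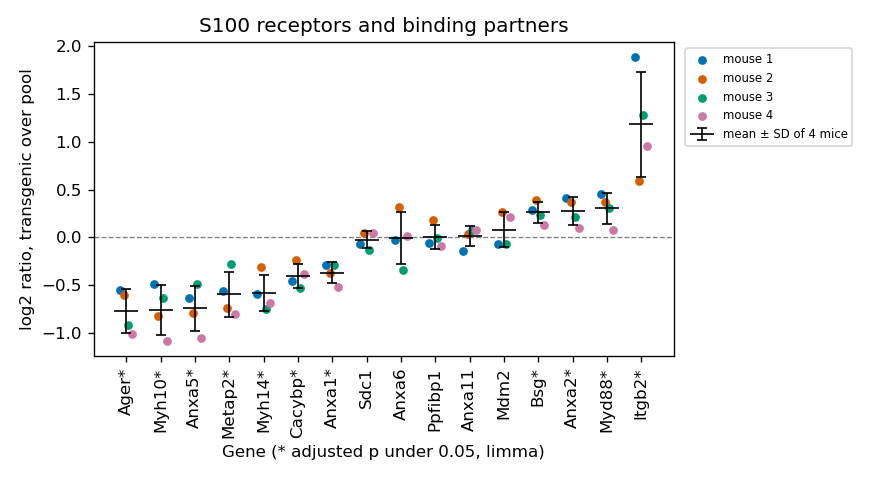
Mean log2 ratio (vertical axis, no unit; horizontal bar with SD of 4 mice) and the 4 mouse means (points) for the 16 measured receptors and partners of S100 proteins, ordered by mean; asterisks mark adjusted p under 0.05. Ager is the lowest at -0.78 and Itgb2 the highest at 1.18.

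S100a8 and S100a9 are neutrophil genes, and the other genes of that list moved in both directions. Chil3, Itgb2, Lcn2, Il1b, Anxa1 and Hp also stand in other lists used here. The direction of the list therefore cannot be read as that of neutrophil number. Of 26 others measured, 12 rose, 46.2% beside 13.5% of all genes. The 4 that fell are 15.4%, near the 18.4% of all genes. The median was 0.23, and by mouse the medians were 0.32, 0.07, 0.19 and 0.15. The genes highest by size were Chil3 (4.43 ± 0.41), Chil1 (1.74 ± 0.31), Wfdc21 (1.23 ± 0.70) and Itgb2, with adjusted p between 2.88e-05 and 0.00889, of which Chil3 also stands in the alveolar macrophage and monocyte lists. Of the others that rose, 6 were picked after their values were seen. They were Pglyrp1 (1.11 ± 0.32), Slpi (1.05 ± 0.13), Lcn2 (0.93 ± 0.41), Ngp (0.91 ± 0.26), the lactoferrin gene Ltf (0.88 ± 0.62) and the cathelicidin gene Camp (0.48 ± 0.16), with adjusted p between 5.85e-04 and 0.019. The probes of Lcn2 disagreed, at -0.52 and 2.38. Ltf lost its call without mouse 1, 2 or 4 (adjusted p between 0.0566 and 0.0844).

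The neutrophil genes that fell beside S100a8 were G0s2 (-0.92 ± 0.12, adjusted p = 8.57e-04), the interleukin 1 beta gene Il1b (-0.50 ± 0.28, adjusted p = 0.0151), Anxa1 and Mmp9. Il1b had -0.17 in mouse 1 and -0.67, -0.78 and -0.38 in mice 2 to 4, a call lost when mouse 2 or mouse 3 was left out (adjusted p between 0.0507 and 0.0628). G0s2 was low in mouse 1 too, with -0.88, -0.89, -0.83 and -1.09. Mmp9 had -0.37 ± 0.08 as the mean of probes at -0.74 and 0.0015. The primary granule genes Mpo (-0.007 ± 0.10), Elane (0.21 ± 0.46) and Prtn3 (-0.18 ± 0.25) did not pass.

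Of the 32 probes of other neutrophil genes tested, 3 differed between mice, beside 0.986% of all 20392 probes tested. None of the 3 had the order of S100a8. Ltf was lowest in mouse 3, with 0.88, 1.31, 0.0045 and 1.35 in mice 1 to 4 over its probes. Wfdc21 was likewise lowest in mouse 3, with 1.57, 1.40, 0.21 and 1.75. The haptoglobin gene Hp was low in mice 1 and 3, at -1.27 and -1.69, and near 0 in mice 2 and 4, at 0.07 and -0.12. Its mean of -0.75 ± 0.86 did not pass, but did without mouse 2 (adjusted p = 0.0467) and in a limma fit of the 8 arrays with the mouse as a random block (adjusted p = 0.0328). Among the genes that did not pass that test, Clec4d, a lectin receptor of myeloid cells, had 0.19 in mouse 1 and -0.42, -0.30 and -0.30 in mice 2 to 4, the order of high and low mice seen in S100a8. Cybb, a subunit of the phagocyte oxidase, was also highest in mouse 1, at 0.81 against -0.18, 0.21 and 0.11. Both were singled out after their values were seen, and the part of neutrophil number in the ratio of S100a8 was not tested.

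**Figure D4:**
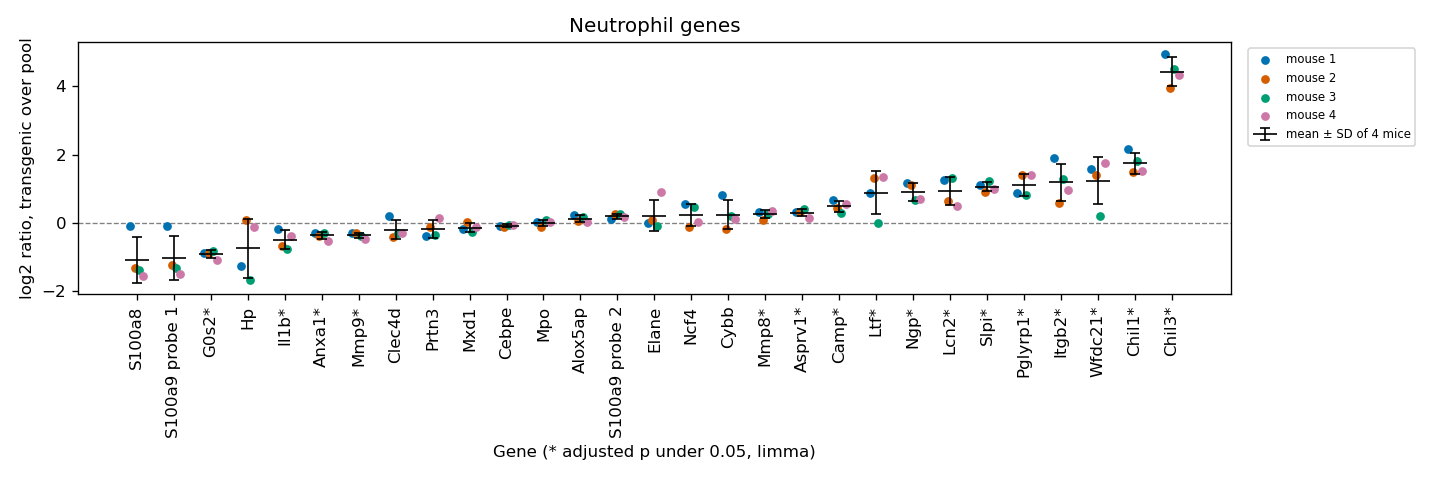
Mean log2 ratio (vertical axis, no unit; horizontal bar with SD of 4 mice) and the 4 mouse means (points) for the neutrophil genes, with both probes of S100a9, ordered by mean; asterisks mark adjusted p under 0.05 and are not given for S100a8 and S100a9. S100a8 and the first probe of S100a9 have the lowest means, while 12 other genes rose.

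Genes of the cells that can hold S100a4 RNA differed by cell type. The cell type lists were written with earlier results of these data known. Their shares are therefore descriptions and no test of a cell type. Among genes of interstitial or recruited macrophages 17 of 19 rose, 89.5% beside 13.5% of all genes, and 0 fell, with a median of 1.22, led by Retnla (5.96 ± 0.46), Ccl9 (3.11 ± 0.81), Ctsk (2.72 ± 0.67) and Gpnmb (2.39 ± 1.48). The medians of this list were 1.80, 0.69, 1.62 and 0.81 in mice 1 to 4. S100a4 had the same order of high and low mice, with mice 1 and 3 above mice 2 and 4. This order was not particular to these macrophages. The medians of the lymphocyte, dendritic cell, monocyte, neutrophil and endothelial lists also had mice 1 and 3 above mice 2 and 4. Those of the alveolar macrophage and lung epithelium lists had the reverse. The part of macrophage number in the ratio of S100a4 was not tested. Of the 22 probes of the list tested, 8 differed between mice, beside 0.986% of all 20392 probes tested.

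Alveolar macrophage genes split, with 6 of 12 higher (50% beside 13.5% of all genes) and 5 lower (41.7% beside 18.4%). Marco (-2.54 ± 0.28), Cidec (-1.55 ± 0.57), Fabp4 (-1.16 ± 0.58), Fabp1 (-0.89 ± 0.23) and Lpl (-0.71 ± 0.33) fell. Chil3, Trem2 (1.87 ± 0.46), Mrc1 (1.24 ± 0.27), Csf2rb (0.94 ± 0.19), Ctsd (0.86 ± 0.44) and Cd9 (0.60 ± 0.50) rose. Trem2 also stands in the list of interstitial or recruited macrophages. Cd9 lost its call without mouse 2, 3 or 4 (adjusted p between 0.0604 and 0.0847) and under the mouse block (adjusted p = 0.0754). Of 15 monocyte genes, cells that also make S100A8 and S100A9, 1 rose and 1 fell, 6.67% each beside 13.5% and 18.4% of all genes, with a median of 0.03. With the probe of smallest SD taken per gene, 4 rose and 2 fell, and with the mouse as a block 2 did each. The genes first counted were Chil3, which rose, and Nr4a1 (-1.13 ± 0.23), a gene that patrolling monocytes need.

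Fibroblast and mesenchymal genes, among which S100a4 is often counted, moved in both directions. Of 31 others measured, 3 rose (9.68% beside 13.5% of all genes), 4 fell (12.9% beside 18.4%) and 24 did not pass, with a median of -0.13. Inmt (-1.57 ± 0.43), Npnt (-1.19 ± 0.40), the periostin gene Postn (-1.08 ± 0.46) and the decorin gene Dcn (-0.88 ± 0.25) fell. Cd34 (1.17 ± 0.49), the protease inhibitor gene Timp1 (0.85 ± 0.33) and Snai2 (0.25 ± 0.11) rose, and Snai2 lost its call without any 1 of the mice (adjusted p between 0.0832 and 0.133). The collagen gene Col1a1 (-0.27 ± 0.44) and the vimentin gene Vim (-0.01 ± 0.66) did not pass, and Col1a1 passed as lower without mouse 3 (adjusted p = 0.0409). The medians of the list were 0.05, -0.35, 0.23 and -0.45 in mice 1 to 4, so that mice 1 and 3 were again the higher.

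Lymphocyte and dendritic cell genes were mostly on the higher side where they passed. T cells and dendritic cells are other cells with S100A4, but the lymphocyte list also holds NK cell and B cell genes. In the list of T cell, NK cell and B cell genes 9 of 15 rose (60% beside 13.5% of all genes) and 2 fell (13.3% beside 18.4%), with a median of 0.52. Cd52 (1.16 ± 0.47), Blnk (1.03 ± 0.21) and Cd22 (0.996 ± 0.24) led it. Its T cell genes below were picked after their values were seen. Cd2 (0.70 ± 0.22), Cd3g (0.53 ± 0.20) and Cd6 (0.33 ± 0.11) rose. Cd3d (0.51 ± 0.51), Cd8b1 (0.26 ± 0.56) and Thy1 (0.17 ± 0.26) did not pass in limma (adjusted p between 0.0628 and 0.337). The granzyme gene Gzma fell by 1.09 ± 0.92 and Blk by 0.29 ± 0.13. Gzma lost its call without mouse 2, 3 or 4 (adjusted p between 0.0817 and 0.122) and Blk without any 1 of the mice (adjusted p = 0.0605 to 0.109) or under the mouse block (adjusted p = 0.146). Of 11 dendritic cell genes 5 rose, 45.5% beside 13.5% of all genes. They were H2-Eb1 (0.84 ± 0.45), Fscn1 (0.77 ± 0.39), Cd74 (0.75 ± 0.58), Irf4 (0.73 ± 0.45) and Ccr7 (0.38 ± 0.20), and Clec9a fell by 0.56 ± 0.27, the 1 gene that did (9.09% beside 18.4%). Cd74 without mouse 1 or 3, Irf4 without mouse 4 and Ccr7 without mouse 1, 2 or 3 did not pass (adjusted p = 0.0599 to 0.0887).

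Genes that TLR4 and RAGE are known to switch on through NF-kB showed no common direction. Of 14 measured, 4 rose (28.6% beside 13.5% of all genes) and 2 fell (14.3%, near the 18.4% of all genes), with a median of 0.18. With the mouse as a block 4 fell. The acute phase gene Saa3 (2.94 ± 0.61), Lcn2, the neutrophil chemokine gene Cxcl1 (0.36 ± 0.26) and Nfkb2 (0.30 ± 0.06) rose, and the adhesion gene Vcam1 (-0.52 ± 0.25) and Il1b fell. Cxcl1 lost its call without mouse 2, 3 or 4 (adjusted p between 0.0638 and 0.128) and Nfkb2 without mouse 1, 2 or 3 (adjusted p = 0.0594 to 0.0758). With 2 of 7 higher and 3 lower (28.6% and 42.9% beside 13.5% and 18.4% of all genes), the AP-1 genes were split. Those that rose were Batf (0.68 ± 0.31) and Junb (0.37 ± 0.18), and those that fell were Fosb (-0.77 ± 0.47), Jun (-0.66 ± 0.22) and Jdp2 (-0.53 ± 0.28). Junb without mouse 1 or 3 and Jdp2 without mouse 2 did not pass (adjusted p = 0.053 to 0.0817). Fosl2, the gene of the transgene, has no named probe here, so the label could not be checked on it.

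Blood and neighbouring tissue were followed because neutrophils also come with blood left in the lung. Of 13 erythroid and platelet genes 2 rose (15.4%, near the 13.5% of all genes) and 1 fell (7.69% beside 18.4%), with a median of 0.14. The globin gene Hba-a1 fell by 0.61 ± 0.16 over 6 probes, with -0.40 in mouse 1 and -0.73, -0.55 and -0.74 in mice 2 to 4. Klf1 (0.47 ± 0.12) and Gp9 (0.43 ± 0.35) rose. Klf1 was not past the threshold with Cy3 data only (adjusted p = 0.187), and Gp9 lost its call without mouse 1, 2 or 4 (adjusted p between 0.0703 and 0.108). Hba-a1, like S100a8, was highest in mouse 1, and the part of residual blood in the ratio of S100a8 was not tested. Of 21 genes of heart muscle and fat 18 fell, 85.7% beside 18.4% of all genes, with a median of -1.03, led by Car3 (-2.25 ± 0.65) and Adipoq (-2.03 ± 0.40), and Scd1 rose by 0.36 ± 0.08, a call lost without mouse 1 (adjusted p = 0.0541). The medians of that list were -0.88, -1.13, -1.12 and -0.61 in mice 1 to 4, so mouse 1 did not stand apart in it.

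Vessel and epithelial lists were split. Of 14 endothelial genes 2 rose (14.3%, near the 13.5% of all genes) and 4 fell (28.6% beside 18.4%). The 2 that rose were Sox17 (0.57 ± 0.17) and Ramp2 (0.40 ± 0.22), and the 4 that fell were Icam2 (-0.99 ± 0.48), Ednrb (-0.87 ± 0.33), Eng (-0.61 ± 0.29) and Plvap (-0.60 ± 0.52). The probes of Ednrb disagreed, at -1.56 and -0.19, and the call was lost with the latter alone (adjusted p = 0.185). Ramp2 without mouse 1 or 2 and Plvap without mouse 1, 2 or 4 did not pass (adjusted p = 0.0706 to 0.123). Of 14 genes of lung epithelium 3 rose and 3 fell, 21.4% each beside 13.5% and 18.4% of all genes. Higher were the keratin gene Krt18 (0.70 ± 0.39), the E-cadherin gene Cdh1 (0.49 ± 0.22) and the surfactant gene Sftpb (0.37 ± 0.19), and lower were Emp2, Ager and Aqp5. Krt18 without mouse 4 and Sftpb without mouse 1 or 2 did not pass (adjusted p = 0.0521 to 0.0917).

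Some calls rested on both dye orientations together. On the Cy5 arrays alone Anxa1, Anxa2, Cxcl1, Gp9, Il1b, Jdp2, Nfkb2, Plvap and Snai2 were not past the threshold in limma (adjusted p between 0.0575 for Il1b and 0.279 for Jdp2). Nor was Cd9 (adjusted p = 0.942). On the Cy3 arrays alone the same held for Anxa2, Blk, Bsg, Ccr7, Cd74, Clec9a, Cxcl1, Gja4, Irf4, Krt18, Myd88, Ramp2, Sftpb and Snai2 (adjusted p between 0.0544 for Clec9a and 0.49 for Ramp2), besides S100a6, Cacybp, Klf1 and Cd3g. With placeholder values kept, Cd74, Cd9, Cxcl1, Gja4, Gp9, Gzma and Plvap were not past the threshold (adjusted p between 0.0506 for Cd74 and 0.0704 for Plvap). Snai2 was lost with the probe of smallest SD too (adjusted p = 0.362).

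Named probes that varied over the arrays most like the 3 genes were ranked among 666 probes whose mouse means spanned at least 1, by the Pearson correlation over 8 arrays after the dye means were taken off. Closest to S100a4 were H2-Q10 (0.994), the connexin gene Gja4 (0.992) and the lysosomal gene Psap (0.986). H2-Q10 did not pass in limma (0.11 ± 0.66, adjusted p = 0.723), with 0.80, -0.62, 0.51 and -0.24 in mice 1 to 4. Psap rose by 1.17 ± 0.52 (adjusted p = 0.00461), with 1.64, 0.59, 1.59 and 0.87 in mice 1 to 4, the same high and low mice as S100a4. Gja4 had 0.79 ± 0.68 and lost its call without mouse 1, 3 or 4 (adjusted p between 0.0789 and 0.114).

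Closest to S100a8 were the polycomb gene Ring1 (0.973), Gzma (0.972) and Trip10 (0.967), and closest to the first probe of S100a9 were Wars (0.982), Ring1 (0.961) and Trip10 (0.952). Gzma, a gene of cytotoxic lymphocytes, had 0.20 in mouse 1 and -1.24, -1.34 and -1.99 in mice 2 to 4. Ring1 had -0.21 in mouse 1 and -1.31, -1.48 and -1.64 in the others. Wars and Trip10 had the same high mouse at another level, 1.04 and 0.89 in mouse 1 and between -0.32 and 0.32 in the others. The second probe of S100a9 had no close match, at most 0.674 (Klhl23), followed by Pcyt1b (0.665) and Sema6c (0.648). These correlations rest on 4 mice and 1 pool and are descriptions.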

How the data were processed

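Lung RNA of 4 transgenic mice was measured on 8 two-colour arrays, labelled indirectly with Cy3 or Cy5, per the labels' protocols. The authors deposited 1 log2 ratio per probe and array. No source used here names the background correction, the normalization or the image software. The base of the logarithm was read from 498 placeholder values beyond 10 in size, 1 constant per array, whose distance from a ratio that 90 to 705 other spots hold is what a small floor in place of 0 gives in base 2. Placeholders were set to missing, and 706 values were missing before. Arrays kept 20585 to 20729 ratios, with medians between -0.09 and 0.008, and the arrays of a mouse correlated at 0.389 to 0.685. Intensities were not used here, so dim probes could not be left out and depth is unknown. The number of arrays limits the precision.

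Of the probes, 12296 had 1 gene name, 0 several, and 8498 are unnamed here. Both arrays of each animal were averaged. The mean of 4 mice was set against 0 by limma 3.58.1 under R 4.3.3 (lmFit, eBayes, two-sided, Benjamini-Hochberg over all 20621 probes, or 8692 genes averaged over probes, adjusted p under 0.05). This leaves out the control's spread, since the pool is 1 sample. A limma F test over the 8 arrays, with dye orientation in the model, compared the mice, and the dye effect was tested on differences within each animal. On simulated data the first test recovered 78% of probes changed by 1 on the log2 scale and 98% of those changed by 2, over 20621 probes. The simulated mice were independent and shared no pool, so these figures leave out the error of the pool. Tables and plots used Python 3.11.15, pandas 2.3.3 and matplotlib 3.10.9.

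The genes and the 15 lists were chosen with earlier results of these data known. Named were every S100 gene, receptor and partner measured, of each other list up to 4 genes past the threshold by size and all where a direction held 5 or fewer, neighbours within 5 places on the chromosome, and the 3 most alike probes per probe. Pglyrp1, Slpi, Lcn2, Ngp, Ltf, Camp, Mpo, Elane, Prtn3, Clec4d, Cybb, Hp, Col1a1 and Vim were chosen after their values were seen. The same holds for Pdpn, Mrc1, Csf2rb, Ctsd, Cd9, Cd2, Cd3g, Cd6, Cd3d, Cd8b1 and Thy1. Promoter sequences and gene order come from RefSeq, build GRCm38.p6; no source used here gives the array's own build. Alternatives changed the centring, scaling, placeholders, block, dyes, mice, moderation and probes used.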

Additional observations from a re-analysis of the deposited data

Results flagged for a closer look

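Of 4 values per result, 1 mouse lay far from the other 3, by the gap to its nearest neighbour over the whole range, in 4 of 142 results examined. Chance alone gives such a gap in about 1 in 20 groups. The 4 flagged fall below that share, so they are no more than chance would give and are listed as descriptions. S100a8 was also chosen on these same values. In S100a8 mouse 1 stood at -0.11, above -1.32, -1.38 and -1.55 in the other mice. In S100a3 mouse 4 stood at 0.35, above values between -0.11 and -0.05. In Marco mouse 3 was lowest at -2.96, and in Inmt mouse 4 was lowest at -2.21.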

How the results depend on the processing

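The mean ratios of S100a4, S100a8 and the first probe of S100a9 kept their sign under every alternative run. Leaving out each mouse in turn gave 1.37 to 1.60 for S100a4, -1.42 to -0.94 for S100a8 and -1.36 to -0.89 for the first probe of S100a9, with mouse 1 setting the low end of the last pair. The second probe of S100a9 turned to -0.03 in Cy5 alone and stood at 0.41 in Cy3 alone. Taking the probe with the smallest SD between mice turned S100a9 as a gene to 0.19, Lcn2 to -0.52 and Mmp9 to 0.0015, and Cd9 turned to -0.0105 in Cy5 alone. Over all probes 5302 passed, 3190 in Cy3 alone and 2547 to 4064 without 1 mouse, lowest without mouse 1 and 2834 without mouse 2. By gene 2772 passed, and 1555 to 2107 without 1 mouse, lowest without mouse 1. Of the other S100 genes 4 were higher in Cy5 alone and 1 in Cy3 alone. Of receptors and partners 1 was higher in Cy3 alone, and 1 to 4 without 1 mouse, 1 each without mouse 1, 2 or 3. Of neutrophil genes 2 fell in Cy5 alone. Small counts in the other lists moved by over 1.5 times. In Cy5 alone 2 NF-kB targets were higher and 1 lower, 4 endothelial genes higher and 2 erythroid genes lower. In Cy3 alone 3 dendritic genes were higher and 0 lower, 1 endothelial, 1 erythroid and 1 epithelial gene higher, and 1 lymphocyte and 1 interstitial macrophage gene lower. With the mouse as a block 4 NF-kB targets, 2 monocyte, 1 lymphocyte and 1 interstitial macrophage gene were lower, and 2 monocyte genes higher. With the probe of smallest SD 4 monocyte genes were higher, and 2 monocyte and 3 erythroid genes lower. With placeholders kept 1 lymphocyte gene was lower and 1 erythroid gene higher, and with scaled arrays 1 interstitial macrophage gene was lower. Without 1 mouse 0 to 1 lymphocyte genes were lower, 1 to 2 endothelial and AP-1 genes, 1 to 3 erythroid genes, 2 to 3 NF-kB targets, 3 to 4 dendritic genes and 0 to 1 heart and fat genes higher, and 1 to 2 NF-kB targets, monocyte and erythroid genes lower. Probes that differed between mice went from 201 to 552 with scaled arrays and to 78 with placeholders kept, and those with a dye effect from 1 to 33 with scaled arrays. The cause of these shifts was not tested, beyond fewer arrays or mice where some were left out. Transgenic mice could not be paired with wild-type mice, because there is 1 group and each array already holds the pool. The arrays of each mouse were paired only in the dye test and joined by mouse in the block fit.

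The direction rests on channel order, the names on a shift, and the control on 1 pool. Signal over background is unknown, so dim probes remain in. Cross-hybridisation of near-identical copies was not tested, since probe sequences were not used. Arrays of mouse 4 correlated least with each other.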
